A study of Homo sapiens with 7 samples.

Results

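The Mediator complex was examined as a set of 31 genes, represented by 124 guide RNAs of the 77441 in the screen, with 4 guides for each gene. Members were chosen by name as the MED genes, the Mediator kinase CDK19 and its cyclin CCNC. The naming rule covers 33 genes, and CDK8 and MED20 were not analysed here. The other genes of the screen brought the number to 19112. The screen was run in HCT116, a colorectal carcinoma line of human origin, in which a clonal GFP splicing reporter had been placed at the AAVS1 locus. The reporter carried OGT intron 4, an intron whose splicing is held back at high O-GlcNAc, and GFP falls when it stays in the transcript. All cells received the Brunello knockout library at a multiplicity of infection of 0.3, puromycin for 8 days from day 2 and 1 µM thiamet G (TG), an inhibitor of the O-GlcNAc-removing enzyme OGA, for 24 h with fresh drug every 12 h. On day 10 the high-GFP fraction was sorted (3 sorted libraries) and compared with unsorted cells of the same treatment (3 input libraries), and a further library gave the guide pool. Library coverage was 100-fold in a pilot replicate and 300-fold in the later ones, but the values carry no replicate numbers, so libraries are numbered 1 to 3 by their place in the data and none could be matched to the pilot.

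Mediator joins DNA-bound transcription factors to RNA polymerase II. Its head and middle modules contact the polymerase and the general transcription factors at promoters, MED14 runs through the complex as a backbone, and the tail receives many of the activators. The kinase module, made of CDK8 or its paralogue CDK19 with cyclin C, MED12 or MED12L and MED13 or MED13L, binds the core complex reversibly, and the core with this module bound does not engage the polymerase. MED27, MED28, MED29 and MED30 are placed in the head by some structural studies and in the tail by others, and are kept apart here.

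The sequences of the guides that carry the comparisons are given here, so that each value can be tied to the site it cut. They belong to the 5 genes with the smallest enrichment p and a printed sequence (MED17, MED8, MED18, MED27 and MED9), the genes with the smallest depletion p (MED12 and MED13L) and MED11, whose guides were scarce in input. Lower case letters are the 20 bases of the guide, 5′ to 3′, and capitals the NGG motif (PAM) that follows it in the genome. Each line gives the exon, the GRCh38 position and the strand. Exons are those of GENCODE 44.
MED17 guide 1, exon 4, chr11:93793742-93793761, minus strand: acttcaaatgtaccatgatgAGG
MED17 guide 2, exon 5, chr11:93793989-93794008, minus strand: tgaagaggttaactgtgccgAGG
MED17 guide 3, exon 6, chr11:93795005-93795024, plus strand: atcacaagtccctcacattgTGG
MED8 guide 1, exon 3, chr1:43387546-43387565, plus strand: atgacctggttacggaacagCGG
MED8 guide 2, exon 4, chr1:43386932-43386951, plus strand: gcttggttctcagatggtcaGGG
MED8 guide 3, exon 4, chr1:43386860-43386879, plus strand: gggctgcatctgcaccaatgCGG
MED8 guide 4, exon 5, chr1:43386591-43386610, minus strand: gagcgagaatcagagagtggAGG
MED18 guide 1, exon 2, chr1:28330681-28330700, plus strand: accatgatgcctgtcactggGGG
MED18 guide 2, exon 3, chr1:28334457-28334476, minus strand: tgtcacacaaaccacgaaggCGG
MED18 guide 3, exon 3, chr1:28334499-28334518, minus strand: ggaataccatctcatggtcaAGG
MED18 guide 4, exon 3, chr1:28334640-28334659, plus strand: tgccctggtgcgaaactgcgTGG
MED27 guide 1, exon 1, chr9:132079640-132079659, minus strand: ggtcaaccgggacctcaagtAGG
MED27 guide 2, exon 2, chr9:132077444-132077463, minus strand: agcatataagtggtcaaacaAGG
MED27 guide 3, exon 3, chr9:132014326-132014345, plus strand: ccatcactcactgaggtggtAGG
MED27 guide 4, exon 5, chr9:131893954-131893973, minus strand: tgaaagtgatcgtcgtcatgCGG
MED9 guide 1, exon 1, chr17:17477096-17477115, minus strand: ggcagcggctggtcggacgtTGG
MED9 guide 2, exon 1, chr17:17477150-17477169, minus strand: ggttgaggcgcagggaccggCGG
MED9 guide 3, exon 1, chr17:17477197-17477216, plus strand: gtcacctgcccgcgcgagggAGG
MED9 guide 4, exon 1, chr17:17477243-17477262, minus strand: ttgatgatgttgtgaaccaaAGG
MED12 guide 1, exon 8, chrX:71122228-71122247, minus strand: cagtgagtagtgccaaaccaAGG
MED12 guide 2, exon 15, chrX:71125108-71125127, minus strand: gtggcgtactgcacgtgtcgTGG
MED12 guide 3, exon 18, chrX:71126121-71126140, plus strand: ttcacattatgaccaacaccAGG
MED12 guide 4, exon 28, chrX:71130148-71130167, plus strand: acatcgactgctggacaatgAGG
MED13L guide 1, exon 6, chr12:116019884-116019903, plus strand: ttcctcaatcaacttacgagTGG
MED13L guide 2, exon 10, chr12:116008902-116008921, minus strand: tgcatggagcaagatacaccAGG
MED13L guide 3, exon 17, chr12:115991485-115991504, plus strand: ggtcctcattggaagaatcgGGG
MED13L guide 4, outside coding exons, chr12:115987092-115987111, plus strand: caggacaaagaccctaccgtAGG
MED11 guide 1, exon 1, chr17:4731564-4731583, minus strand: atcccgaacctgcattctgaAGG
MED11 guide 2, exon 2, chr17:4731797-4731816, plus strand: ccaaggaaaaaactaacgagCGG
MED11 guide 3, exon 2, chr17:4731816-4731835, plus strand: gcggctcctagaccggcaggCGG
MED11 guide 4, exon 2, chr17:4731846-4731865, plus strand: caccgcttcagtgcaacacgTGG

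All 124 guides had 1 perfect genomic site next to an NGG motif, and each lay in its own gene. The cut fell in coding sequence for 120 of them. Over all 124 guides, the median place of the cut was at 33.2% of the coding length (0 to 65.3%). The GC content of the guides ran from 20 to 80%, with a median of 50%. Guides thus differed in place and composition within each gene, and the 4 guides of a gene share a target and are not replicates of a condition.

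Million-read depths were 27.8 to 29.5 in input, 26.2 to 31.0 in sorted libraries and 35.8 in the guide pool. Every Mediator guide was present in the pool, with 6 to 1558 reads and a median of 438. Between input libraries the log2 values of the 124 guides correlated at 0.85 to 0.93, and between sorted libraries at 0.33 to 0.41. These correlations are across guides, which are not independent. In sorted libraries 1, 2 and 3, 10, 18 and 12 of the 124 guides had no read (8.06, 14.5 and 9.68%, against 7.80, 10.8 and 7.26% of all guides). In input, 1 Mediator guide had no read in 1 library. OGT, whose product adds O-GlcNAc and which serves as a check of the sorted label, had a log2 fold change of 5.23 ± 0.22 (SE, limma adjusted p = 0.000226).

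MED30 and MED11 were the members whose guides were scarcest in growing cells. The comparison of input with the guide pool asks which guides had become rarer by day 10, before any sort. It is given as log2 of input over pool after each library was scaled to its median guide, averaged over the 4 guides of a gene, and the SD is over the 3 input libraries. MED30, a Mediator subunit of animals without a yeast counterpart, stood at -2.57 ± 0.19, a 0.169-fold level. MED11, a small head subunit that pairs with MED22, stood at -2.51 ± 0.23, or 0.176-fold. They held ranks 3 and 4 from the bottom among 19112 genes. They were the 2 of 31 members (6.45%) below -1 in all 3 input libraries, against 0.848% of all genes. As 1 guide pool library was measured, no test was made, and its origin is given as unselected cells by the series record and as the viral DNA preparation by the methods.

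Each of the 8 guides against MED30 and MED11 was below -1 in all 3 input libraries. MED11 guide 1 had 490 reads in the pool and 183, 111 and 168 in input. MED11 guide 2 had 135 reads in the pool and 6, 4 and 32 in input. MED11 guide 3 had 620 reads in the pool and 81, 65 and 44 in input. All 3 lay far below their pool counts, where the median guide had 396 reads in the pool and 302 to 321 in input. MED11 guide 4 had 625 reads in the pool and 101, 121 and 66 in input. The guides of exon 2 had lower ratios (-3.34, -2.96 and -2.38) than the guide in exon 1 (-1.34). MED30 guides showed the same order of pool over input. MED30 guide 1 had 179 reads in the pool and 67, 43 and 6 in input. MED30 guide 2 had 390 reads in the pool and 13, 9 and 27 in input. MED30 guide 3 had 471 reads in the pool and 70, 162 and 75 in input. Guide 1 had its lowest count in input library 3 and guide 3 its highest in input library 2, so the input libraries differed from guide to guide. MED30 guide 4 had 564 reads in the pool and 104, 115 and 210 in input. The lowest of these 8 ratios, that of MED30 guide 2, was -4.28, a 0.0515-fold level. Of all 124 Mediator guides, 13 were below -1 in all 3 input libraries, against 3.25% of all guides, and the other 5 targeted MED6, MED9, MED14, MED29 and MED31, with 1 guide each.

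The other 29 members lay between -0.82 and 0.45. Over all 31 genes the median was -0.19, against -0.01 for all genes, and 21 of 31 were below 0, against 51.0% of all genes. The median was -0.29, -0.06 and -0.12 in the 3 input libraries. Non-targeting guides had a median of 0.33 on the same scale, so that scaling to them puts the median of all genes at -0.33 and moves every gene down alike. On that scale MED6 also passed, giving 3 members, against 2.34% of all genes.

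Module levels are given as a description, with no test between modules. Head genes had a median of -0.48 and the 4 genes placed in head or tail -0.50. In the head, MED6, which links head and middle, stood at -0.82 ± 0.04, MED8, which holds MED18 to the head, at -0.55 ± 0.07, and MED22 at -0.42 ± 0.09. MED18, part of the movable jaw, stood at -0.27 ± 0.06, and MED17, the central scaffold of the head, at 0.03 ± 0.08. The mean of MED17 was smaller than its SD, so it did not stand apart from the median guide within the spread of the input libraries. This holds for the scale used here, as scaling to non-targeting guides puts every gene lower. The SD does not cover the single guide pool library. Of MED27 to MED30, MED29 followed MED30 with -0.67 ± 0.12, then MED28 with -0.33 ± 0.35 and MED27 with -0.14 ± 0.34.

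Middle genes had a median of -0.19 (-0.45, 0.01 and -0.06 in input libraries 1, 2 and 3). Without input library 1 it was -0.0101 relative to all genes, against -0.18 with all 3. MED31, which forms the knob of the middle, was the lowest at -0.76 ± 0.34, with single guides from -2.65 to 0.87. MED9 followed at -0.51 ± 0.20 and MED10 at -0.40 ± 0.13. MED21, which forms a hinge with MED7, was at -0.19 ± 0.20, and MED7 itself was at 0.10 ± 0.17. Of the other subunits of the middle, MED4 was at -0.18 ± 0.39 and MED19 at -0.13 ± 0.30. MED1, the subunit that binds nuclear receptors, was at 0.19 ± 0.20, the highest of the middle. The SDs of MED1, MED4, MED7, MED19 and MED21 exceeded the size of their means. On this scale these 5 genes did not stand apart from the median guide beyond the spread of the input libraries. Scaling to non-targeting guides puts all of them lower, so this depends on the scale.

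The backbone subunit MED14 stood at -0.26 ± 0.06 and MED26, which joins the complex with the polymerase and recruits elongation factors, at -0.21 ± 0.17. In MED14, 1 of 4 guides, in exon 15, had a ratio of -1.55 while the other guides ran from -0.34 to 0.45. Tail genes had a median of 0.20, or 0.21 relative to all genes, which became -0.0920 with MED27 to MED30 counted in the tail. MED25, a target of several activators, was at -0.10 ± 0.19, MED16, a neighbour of MED23 and MED24 in the tail, at 0.10 ± 0.10 and MED23, a partner of the growth-responsive factor ELK1, at 0.20 ± 0.08. MED15, a partner of the SREBP factors of lipid synthesis, was at 0.22 ± 0.06 and MED24 at 0.45 ± 0.32, the highest member of all.

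Kinase module genes had a median of -0.02, close to that of all genes. MED12, which activates the kinase, was the lowest at -0.48 ± 0.20, with MED13, which ties the module to the core, at -0.19 ± 0.14 and MED13L at -0.09 ± 0.20. CCNC, the cyclin, was at 0.09 ± 0.07, CDK19 at 0.12 ± 0.12 and MED12L at 0.05 ± 0.10. None of these 6 genes was past the fold bound. The MED12 value rests partly on guide 2, which had 6 pool reads.

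No Mediator gene was called in the sort. The comparison of sorted with input cells asks which losses left GFP high under TG. By robust rank aggregation (RRA), which asks whether the guides of a gene rank high together, 0 of 31 members were enriched and 0 depleted at an adjusted p below 0.05, against 0.314% of all genes enriched and 0.00523% depleted. By limma on gene means, 0 of 31 passed, against 0.0157% of all genes. The smallest adjusted RRA p for enrichment was 0.798 (MED17), and that for depletion 0.796 (MED12). Unadjusted, 2 members (6.45%) were below 0.05 for enrichment, MED17 and MED8, against 5.47% of all genes. For depletion they were 3 (9.68%), MED12, MED13L and MED25, against 5.53%. On gene means, unadjusted limma p-values were below 0.05 for 4 members (12.9%) that were lower in sorted cells, MED11, MED13L, MED25 and CCNC, against 13.9% of all genes, and for 0 that were higher (against 1.96%). The limma share for lower genes lay below that of all genes, and the RRA shares a little above.

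The median log2 fold change of the 31 genes, taken on log2 of the normalised count plus 1, was -0.46, against -0.56 for all genes (-0.22, -0.64 and -0.30 by sorted library). The Mediator median minus that of all genes was -0.24, -0.29 and 0.14 in sorted libraries 1, 2 and 3, so it had no steady direction, and across the alternatives it ran from -0.0934 to 0.12. Below 0 were 23 of 31 members, against 78.5% of all genes. Module medians below are relative to all genes, but values of single genes are given without subtracting the median of all genes. A gene between -0.56 and 0 thus lies above the median gene, and 16 of 31 members lay above it. Of the 124 guides, 48 had a log2 fold change above 0, against 41.4% of all guides. All 3 sorted values lay above all 3 input values for 10 guides (8.06%), against 9.04% of all guides. All 3 lay below for 11 (8.87%), against 7.47%. By limma on single guides, 0 Mediator guides were called higher (against 0.0917% of guides) and 1 lower (against 0.591%). That guide was MED25 guide 1, described with the tail.

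Head genes had a median 0.61 above that of all genes, the highest of the modules on this scale. It was not the highest with edgeR (0.17, against 0.39 for MED27 to MED30). With guides averaging 200 or more in input it was 0.54, against 0.61 for MED14 and MED26. That filter leaves out MED11 and every MED14 guide but guide 1, so the sets compared differ. Over all guides, the head median was -0.64, 1.08 and 0.58 in the 3 sorted libraries, and 0.10 when sorted library 3 was left out. In the head, 4 of 24 guides lay above input in all sorted libraries (16.7%, against 9.04% of all guides) and 1 below (against 7.47%). MED17, the scaffold of the head, had the smallest enrichment p of the members (unadjusted exact RRA p = 0.0228) and a log2 fold change of 0.23 ± 0.71 (SE, as for all log2 fold changes here). By sorted library it was -1.49, 0.61 and 1.56, with library 1 opposite to the others.

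MED17 guide 1 had normalised counts of 300.2, 317 and 242 in input and 654, 785 and 1104 in sorted libraries. This guide, in exon 4, had sorted values above all input values and a log2 fold change of 1.54 ± 0.31 (limma adjusted p = 0.1005). For MED17 guide 2, the normalised counts were 263, 153 and 133 in input and 337, 86.9 and 772 in sorted cells. MED17 guide 3 was read at 337, 366 and 382 in input and at 257, 502 and 589 in sorted cells. In both, sorted and input values overlapped. The gene value also takes in a guide that is not reported here, so these 3 guides alone do not stand for the gene. Without sorted library 1 the adjusted RRA p of MED17 was 0.488 and its log2 fold change 1.08, and without sorted library 3 the latter was -0.44.

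MED8, the head subunit that holds MED18, followed with an unadjusted exact RRA p of 0.0395 and a log2 fold change of 0.37 ± 0.26 (-0.04, 0.71 and 0.46 in the sorted libraries). MED8 guide 2 counted 242, 336 and 348 in the input libraries and 643, 1164 and 755 in the sorted ones. This exon 4 guide was above input in every sorted library, with a log2 fold change of 1.44 ± 0.33 (limma adjusted p = 0.174). MED8 guide 1 had normalised counts of 368, 243 and 363 in input and 336, 277 and 742 in sorted libraries. For MED8 guide 3, the normalised counts were 439, 465 and 413 in input and 431, 439 and 472 in sorted cells. MED8 guide 4 was read at 443, 320.4 and 313 in input and at 144, 766 and 203 in sorted cells. The last 3 guides overlapped between groups, and guide 3, cut in the same exon as guide 2, had a log2 fold change of 0.03 ± 0.26.

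MED18, of the movable jaw, had a log2 fold change of 0.35 ± 0.30 (unadjusted exact RRA p = 0.0611). In sorted cells MED18 guide 1 had 365, 615 and 362, against 584, 621 and 541 in input. MED18 guide 2 counted 299, 305 and 390.3 in the input libraries and 180.0, 1301 and 564 in the sorted ones. MED18 guide 3 had normalised counts of 244, 242 and 306 in input and 323, 553 and 364 in sorted libraries. Of these, guide 3 did not overlap with input, and guides 1 and 2 did. For MED18 guide 4, the normalised counts were 793, 859.6 and 738 in input and 1369, 1723 and 734 in sorted cells. In sorted library 2 the gene stood at 1.06 and in the others at -0.11 and 0.11, and without that library its log2 fold change was -0.000816.

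Of the other head genes, MED6 had a log2 fold change of -0.13 ± 0.57 and MED22 of -0.69 ± 0.44. MED11, whose guides were scarce in input, stood at -2.14 ± 0.71, the lowest of the head, with an unadjusted exact RRA p for depletion of 0.0501 (adjusted p = 0.902). MED11 guide 1 was read at 151, 97.2 and 146 in input and at 76.9, 0 and 0 in sorted cells. In sorted cells MED11 guide 2 had 0, 0 and 64.8, against 4.94, 3.50 and 27.8 in input. Both had no read in sorted library 2 and in 1 other. MED11 guide 4 counted 83.1, 106 and 57.2 in the input libraries and 0, 0 and 114 in the sorted ones. MED11 guide 3 had normalised counts of 66.6, 56.9 and 38.2 in input and 154, 428 and 64.8 in sorted libraries. Guide 3 thus went the other way from guides 1 and 4. The size of the fold depended on how low counts were treated, and it was -0.81 with a pseudocount of 10 and -0.08 with edgeR on summed reads.

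Middle genes had a median 0.39 below that of all genes (-0.10, -0.48 and -0.56 by sorted library), and 0 of 32 guides lay above input in all sorted libraries (against 9.04% of all guides) while 1 lay below (against 7.47%). Without sorted library 3 the middle median was 0.0539 above that of all genes. MED9 was the 1 member for which all 4 guides had log2 fold changes above 0. All 4 were below 0 for 6 members (MED25, MED28, MED13, MED13L, CCNC and CDK19). The share of all genes with such guides was not counted. The gene value of MED9 was 0.32 ± 0.34 (unadjusted exact RRA p = 0.0874). For MED9 guide 1, the normalised counts were 500.1, 474 and 425 in input and 151, 1023 and 704 in sorted cells. MED9 guide 2 was read at 440.0, 636 and 592 in input and at 496, 583 and 1033 in sorted cells. In sorted cells MED9 guide 3 had 223, 749 and 230.4, against 182, 276 and 249.8 in input. None of these separated from input in all libraries. MED9 guide 4 counted 697, 1009 and 922 in the input libraries and 853, 1379 and 1334 in the sorted ones. In sorted library 1 the gene stood at -0.46, below its input mean.

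MED1 had a log2 fold change of -0.45 ± 0.33, MED10 of -0.39 ± 0.68, MED21 of -0.67 ± 0.60 and MED7 of -1.23 ± 0.56. Of the 8 middle genes, 3 (MED1, MED9 and MED10) lay above the median of all genes, and the others lay below it. MED31 stood at -1.25 ± 0.91 and MED19 at -1.29 ± 1.01. MED4, at -1.53 ± 0.82, was the lowest of the middle. Single MED4 guides ran from -5.23 to 0.85. In MED19, 2 guides had no read in sorted library 2 and 1 had few in library 1, and the gene values by library were -1.42, -3.33 and 0.89. None of the middle genes had an unadjusted exact RRA p below 0.05 in either direction.

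The 4 genes placed in head or tail had a median 0.23 below that of all genes, and 3 of their 16 guides (18.8%) lay above input in all sorted libraries, against 9.04% of all guides. That median was 0.12 above with a pseudocount of 10 or the median over guides, 0.39 above with edgeR and 0.00598 above without sorted library 2. MED27, the first of them by enrichment p (unadjusted exact RRA p = 0.0807), had a log2 fold change of -0.33 ± 0.59. MED27 guide 1 had normalised counts of 219, 261 and 147 in input and 573, 622 and 429 in sorted libraries. Guide 1, in exon 1, was above input throughout, with a log2 fold change of 1.39 ± 0.38 (limma adjusted p = 0.310). For MED27 guide 2, the normalised counts were 79.8, 95.4 and 33.0 in input and 0, 0 and 392 in sorted cells. MED27 guide 3 was read at 651, 412 and 444 in input and at 569, 760.2 and 464 in sorted cells. In sorted cells MED27 guide 4 had 622, 537 and 609, against 470.5, 598 and 512 in input. Guide 2 was the shallowest of these in input, had no read in sorted libraries 1 and 2 and was above input in library 3, and limited to the other 3 guides, which average 200 or more in input, MED27 stood at 0.60.

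MED30 (unadjusted exact RRA p = 0.147) had a log2 fold change of 0.65 ± 0.69, the highest of the members, with 1.74, -0.35 and 0.54 by sorted library. MED30 guide 1 counted 55.1, 37.6 and 5.20 in the input libraries and 223, 0 and 0 in the sorted ones. MED30 guide 2 had normalised counts of 10.7, 7.88 and 23.4 in input and 151, 56.0 and 225 in sorted libraries. For MED30 guide 3, the normalised counts were 57.6, 142 and 65.1 in input and 46.1, 97.2 and 239 in sorted cells. Guide 2 did not overlap with input and guide 1 had reads in 1 sorted library. MED30 guide 4 was read at 85.5, 101 and 182 in input and at 244, 213 and 259 in sorted cells. Guides 2 and 4 thus lay above input in all sorted libraries. The input values behind these folds were low, as the pool comparison shows, and limited to guides averaging 30 or more in input, MED30 stood at -0.20. MED28 stood at -2.58 ± 1.56 and MED29 at -1.25 ± 0.68. All 4 MED28 guides had log2 fold changes below 0, but the gene value was 0.95 in sorted library 1, -6.15 in library 2 and -2.55 in library 3.

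MED14, the backbone, had a log2 fold change of -0.40 ± 0.71 and MED26 of 0.02 ± 0.32. In sorted cells MED14 guide 1 had 261, 425 and 381, against 235, 214 and 151 in input. MED14 guide 2 counted 157, 169 and 188 in the input libraries and 214, 341 and 215 in the sorted ones. Both MED14 guides, in exons 4 and 8, lay above input in all sorted libraries. MED14 guide 3 had normalised counts of 56.8, 52.5 and 33.0 in input and 0, 0 and 131 in sorted libraries. That guide had no read in 2 sorted libraries, so the gene mean was below 0 although 3 of its 4 guides were above.

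Tail genes had a median 0.12 above that of all genes (-0.11, -0.63 and 0.13 by sorted library), without a steady direction: it was -0.0709 with a pseudocount of 10, -0.12 with guides averaging 200 or more in input, -0.16 with edgeR and -0.0296 with the median over guides. It was -0.0627 without input library 1 and -0.0958 without sorted library 3. MED25 had the lowest log2 fold change of all members, -2.73 ± 0.75 (unadjusted exact RRA p for depletion 0.0373), with -1.93, -4.20 and -2.05 by sorted library. For MED25 guide 1, the normalised counts were 100.3, 79.7 and 116 in input and 0, 0 and 0 in sorted cells. This guide, in exon 3, had no read in any sorted library and was the Mediator guide that limma called, with a log2 fold change of -6.62 ± 1.00 (adjusted p = 0.0376). With sorted values all at 0, its fold is set by the input counts and the pseudocount, and the sorted values have no spread. The MED25 gene value takes in this guide. MED25 guide 2 was read at 173, 182 and 214 in input and at 85.9, 0 and 171 in sorted cells. In sorted cells MED25 guide 3 had 417, 52.6 and 979, against 335, 330.0 and 379 in input. MED25 guide 4 counted 201, 132 and 191 in the input libraries and 146, 183 and 21.6 in the sorted ones. Guide 2 lay below input throughout, guides 3 and 4 overlapped with it, and the call of 1 guide did not carry over to the gene (limma adjusted p = 0.205). MED15 stood at -0.12 ± 0.60, MED16 at 0.27 ± 0.29, MED23 at -0.81 ± 0.38 and MED24 at -0.44 ± 0.34.

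Kinase module genes had a median 0.40 below that of all genes, and it was below in each sorted library (-0.50, -0.72 and -0.24). With the median over a gene's guides in place of the mean it was -0.06625. Of their 24 guides, 6 lay below input in all sorted libraries (25%, against 7.47% of all guides) and 0 above (against 9.04%), and 3 had a log2 fold change above 0 (against 41.4%). The other 25 members together had a median 0.12 above all genes, with 5 of 100 guides below and 10 above. These counts are descriptions of guides in shared libraries and were not tested as a difference between modules.

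MED12, the activator of the kinase, had the smallest depletion p of the members (unadjusted exact RRA p = 0.00885), at a log2 fold change of -0.58 ± 0.54, with -0.50, -0.32 and -0.92 by sorted library. Relative to the median of all genes, MED12 stood at -0.0199, and in library 2 it was above that median. MED12 guide 1 had normalised counts of 539, 534 and 633 in input and 559, 381 and 204 in sorted libraries. For MED12 guide 4, the normalised counts were 345, 440.3 and 432 in input and 344, 237 and 237 in sorted cells. Guide 4, in exon 28, was below input in every sorted library, narrowly in library 1, and guide 1 in 2 of 3. MED12 guide 3 was read at 127, 162 and 165 in input and at 93.2, 336 and 118 in sorted cells. In sorted cells MED12 guide 2 had 0, 0 and 0, against 4.11, 0.875 and 0 in input. Guide 2 was nearly absent throughout and was ranked with the others, and under a minimum input average of 30, which leaves it out, the adjusted p of MED12 was 0.905 and its log2 fold change -0.41.

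MED13L, a paralogue of the subunit that ties the module to the core, had an unadjusted exact RRA p for depletion of 0.0164 and a log2 fold change of -1.36 ± 0.39, with -0.94, -1.14 and -2.01 by sorted library. MED13L guide 1 counted 206, 257 and 349.6 in the input libraries and 106, 179 and 0 in the sorted ones. MED13L guide 3 had normalised counts of 605, 659 and 569 in input and 336, 521 and 516 in sorted libraries. For MED13L guide 4, the normalised counts were 312, 493 and 437 in input and 175, 231 and 283 in sorted cells. Guide 4 cut outside the coding exons of the annotated transcript. Guides 1, 3 and 4 lay below input in all sorted libraries, with log2 fold changes of -3.31, -0.44 and -0.85. MED13L guide 2 was read at 387, 467 and 466 in input and at 335, 56.0 and 753 in sorted cells. Guide 2 was below input in 2 sorted libraries and above in the third, and all 4 guides had log2 fold changes below 0.

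CCNC, cyclin C, stood at -2.49 ± 0.94 (-0.98, -4.61 and -1.87), with log2 fold changes of its guides from -3.53 to -1.34. In sorted cells CCNC guide 1 had 45.2, 50.3 and 0, against 211, 112 and 151 in input. CCNC guide 3 counted 184, 149 and 114 in the input libraries and 97.7, 0 and 112 in the sorted ones. Both guides lay below input in all sorted libraries, guide 3 narrowly in library 3, and each had no read in 1 of them. CCNC guide 2 had 148, 158 and 154 in input and 70.6, 10.3 and 276 in sorted libraries. CCNC guide 4 had 77.3, 134 and 197 in input and 90.5, 1.14 and 80.1 in sorted libraries. These 2 guides overlapped with input. MED13 stood at -1.33 ± 0.67, with all 4 guides below 0.

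Of the other genes of the module, CDK19 and MED12L are given by guide values. CDK8, the paralogue of CDK19, was not analysed here, so that pair could not be compared. CDK19, the kinase, had a log2 fold change of -0.46 ± 0.44 (0.22, -1.60 and 0.00 by sorted library, and 0.11 without library 2) and MED12L of 0.03 ± 0.29, and neither had a guide apart from input in all sorted libraries. CDK19 guide 1 had normalised counts of 754, 795 and 664 in input and 883, 897 and 474 in sorted libraries. For CDK19 guide 2, the normalised counts were 725, 784 and 787 in input and 307, 566 and 929.6 in sorted cells. CDK19 guide 4 was read at 622, 540.1 and 474 in input and at 555, 537 and 319 in sorted cells. These CDK19 guides overlapped between groups. In sorted cells CDK19 guide 3 had 1246, 3.43 and 727, against 277, 426 and 314 in input. That guide was above input in sorted libraries 1 and 3 and near 0 in library 2. MED12L guide 1 counted 342, 312 and 229.9 in the input libraries and 504, 328 and 230.4 in the sorted ones. MED12L guide 2 had normalised counts of 409, 336 and 343 in input and 195, 578 and 393 in sorted libraries. For MED12L guide 3, the normalised counts were 187, 229 and 249 in input and 204, 70.9 and 274 in sorted cells. All 3 overlapped with input. MED12L guide 4 was read at 202, 268 and 198 in input and at 217, 572 and 206 in sorted cells. By sorted library the MED12L values were -0.05, 0.15 and 0.00, the narrowest range of the kinase module.

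Across all members, guide dropout was uneven between sorted libraries. Of the 124 guides, 98 had reads in all 3 sorted libraries, 14 had none in 1, 10 had none in 2 and 2 had none in all 3. At least 1 sorted library lacked 26 Mediator guides (21.0%), against 20.4% of all guides. Of the 5 Mediator guides with a mean input below 30, 4 lacked reads in a sorted library, and of the other 119, 22 did.

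Some other components of the preinitiation complex, with which Mediator works, were examined and were not called either. The list does not cover the whole complex. Of 15 genes for TFIIB, TFIIE, TFIIF and TFIIH, 0 were called enriched (against 0.314% of all genes) and 0 depleted (against 0.00523%). Their median log2 fold change was the same as that of all genes to 2 decimals. CCNH, the cyclin of the TFIIH kinase, had the smallest enrichment p, with a log2 fold change of 1.08 ± 0.30, values of 1.00, 0.78 and 1.45 by sorted library, and an adjusted RRA p of 0.0543. Across the alternatives its adjusted p ran from 0.0359 (pseudocount 10) to 0.789 (guides averaging 200 or more in input). It was also below 0.05 with edgeR (0.0436), and was 0.592, 0.115 and 0.633 without sorted library 1, 2 or 3. ERCC2, a TFIIH helicase, followed with 0.85 ± 0.32 (adjusted p = 0.663) and was higher in 3 of 3 sorted libraries. CDK7, the kinase that pairs with CCNH, had -0.18 ± 0.76, and MNAT1, which assembles the pair, had -2.35 ± 0.92. In input over pool, GTF2H2, a TFIIH subunit, was the 1 of these 15 genes (6.67%) below -1 in all 3 input libraries, at -1.46. The share over all genes was 0.848%. The number of genomic sites was not checked for the guides of these 15 genes.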

How the data were processed

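Guide RNA abundance was read in 3 input, 3 sorted and 1 guide pool library. Reads were checked with FastQC 0.11.9, trimmed with cutadapt 3.3, matched to the Brunello guides and normalised with MAGeCK, per the labels' processing notes, which give no MAGeCK version, whereas the methods name other versions. In the authors' guide table each cell holds 3 normalised counts without replicate numbers. They carry another unit than reads, being reads times 1 factor per library, and 99.997 to 100% of values were whole multiples of that factor (within 0.1 of a read). For the guide pool the deposited value is a raw count of reads for every guide. The authors' fold changes, scores and p-values were not used.

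Of 77441 guides, 77388 were tested and 53 at 0 in all 6 cell libraries were left out, none of them a Mediator guide. limma 3.58.1 (lmFit, eBayes with trend, R 4.3.3) was run on log2 of the normalised count plus 1, for single guides and for gene averages over guides. Genes were ranked by a re-implementation of RRA on one-sided guide p-values (alpha 0.25, exact null from uniform order statistics), with Benjamini-Hochberg adjustment over 19112 genes and a threshold of 0.05. Input over pool used log2 of reads plus 1, each library centred on its median guide, with a bound of -1 in every input library. edgeR 4.0.16 on the recovered reads (quasi-likelihood, TMM) was an alternative, with other pseudocounts (0.5 and 10), filters (mean input of 30 or 200, 100 pool reads), scalings, RRA settings and each library left out. Mediator guides were matched to GRCh38 with GENCODE 44. The fits were run on simulated counts with set fold changes. Those counts did not copy the guide dropout of the sorted libraries, so they give no measure of power for the calls here.

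All members were named by the rule of their gene symbols. Guide values and sequences were given for the 6 members ranked first for enrichment, the 2 ranked first for depletion and the 2 lowest in input over pool, with CDK19 and MED12L by values. MED30 is given by values only, and 1 guide of MED17 is not reported here. The guides of MED25, CCNC and MED14 were added after their values were seen. The members and lists were chosen with earlier results of these data known. The p-values of limma measure the spread between libraries labelled as biological replicates, and reads carry no molecular identifiers.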

Additional observations from a re-analysis of the deposited data

How the results depend on the processing

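The count of Mediator genes called was 0 in each direction under all 16 alternatives. Over all genes, these alternatives called 19 to 81 genes enriched and 0 to 2 depleted, of 19112 (18284 with a mean input of at least 200). With so few calls over all genes, a count of 0 among 31 members says little about Mediator, least of all for depletion. With a mean input of at least 200, 28 members had guides left to test. The smallest adjusted RRA p of a member was 0.488 for enrichment (MED17, without sorted library 1) and 0.477 for depletion (MED12, edgeR). MED30 and MED11 were past the bound in input over pool under every scaling, pseudocount, filter and left-out input library tried. Relative to all genes, the middle median in sorted over input was -0.0904 with a mean input of at least 200, -0.14 with edgeR, 0.00334 with MED14 and MED26 added, and -0.59 to 0.0539 with each library left out. The median of MED27 to MED30 was 0.12 to 0.39 with a pseudocount of 10, the median over guides or edgeR. With a mean input of at least 200 it was -1.90. No MED30 guide passes that filter, so the value covers MED27, MED28 and MED29, the last 2 with fewer guides. The kinase module median was -0.06625 with the median over guides. In input over pool, the head median was -0.59 with the median over guides and the tail median -0.0920 with MED27 to MED30 added. The cause of these moves was not tested. The log2 median of all genes ran from -0.77 (equal totals) to 0.03 (edgeR) in sorted over input, so module values are relative to it. Of the 124 guides, 26 lacked reads in at least 1 sorted library, and their part in the results was not tested. No paired analysis was possible because the values carry no replicate numbers.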
